A study of Mus musculus with 6 samples.

Results

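The genes described here are 34 genes of the interferon response and of class I antigen presentation, read in the cerebral cortex of mouse embryos with and without Csmd3. They were taken by symbol from the gene table, through GENCODE release M21, and all 34 had a row among the 55401 rows of the table. Total RNA of C57BL/6 cortex at embryonic day 18 was sequenced on an Illumina instrument, with 3 wild-type (WT) libraries and 3 libraries of the Csmd3 knockout (Csmd3-/-). The embryos were the offspring of Csmd3 heterozygotes mated with each other. No drug or infection is named in the labels for either group, and the part of Csmd3 that was removed is not stated in the labels. The labels do not say whether the libraries of a group are separate embryos, so the p-values measure the spread between these libraries.

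Type I interferons bind a receptor made of the subunits IFNAR1 and IFNAR2. The receptor activates STAT factors, among them STAT2, which acts with IRF9 to switch on antiviral genes through a promoter element called the interferon-stimulated response element. Class I molecules, a heavy chain paired with beta-2 microglobulin, carry peptides from inside the cell to its surface. The peptides are cut by the proteasome, pumped into the endoplasmic reticulum by the TAP transporter and loaded with the help of tapasin. In the brain, many of these genes are known from microglia, border macrophages and vessel cells.

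Deposited totals were 54244288 to 68269607 counts per library. Low counts piled up at multiples of 4 in all 6 libraries, so a fragment appears to count about 4 times and a count has the precision of that value divided by 4. Csmd3 was at 13.2 to 16.6 CPM (a count relative to the total count of its library, scaled by TMM) in WT and at 9.80 to 10.3 CPM in the knockout (log2 fold change -0.59, adjusted p = 0.0233), a fall that checks the labels only weakly. Markers of cortical neurons and progenitors such as Tbr1 and Neurod6 summed to 7310 to 7947 CPM in all 6 libraries. The knockout libraries also held more markers of other cells. The summed level of 12 meningeal fibroblast markers was 19.7 to 28.1 CPM in WT and 534 to 734 CPM in the knockout, with 12 of 12 higher. For border macrophages it was 11.2 to 15.5 CPM against 104 to 136 CPM (8 of 8 higher), and for microglia 56.3 to 64.9 CPM against 96.9 to 107 CPM (8 of 12 higher). Endothelial markers summed to 327 to 361 CPM against 509 to 622 CPM (9 of 16 higher), and mural cell markers to 130 to 140 CPM against 234 to 269 CPM (6 of 8 higher). Over all tested genes 5.21% were higher. The filter on low counts was met through the knockout libraries alone by 5 fibroblast, 5 border macrophage, 3 mural and 1 endothelial marker. This bears on their calls. The 11 lymphocyte and granulocyte markers summed to 0.369 to 0.716 CPM against 0.474 to 1.37 CPM, with 3 tested and 0 higher. Of these markers, Cd3e, Ncr1, Nkg7 and Ly6g had 0 counts in every library. Others had a few, such as Cd4 (0, 0 and 9 counts in WT, 12, 19 and 41 in the knockout). S100a9 had 0, 19 and 23 in WT and 34, 0 and 0 in the knockout. In bulk tissue, fewer or more cells of a type and less or more RNA per cell cannot be told apart. The part of these cell types in the results below was not tested.

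A small part of the interferon and class I genes was higher in the knockout, and none was lower. The genes that rose were the antiviral membrane protein genes Ifitm1, Ifitm3 and Bst2, the interferon-inducible gene Ifi27, the RNA sensor gene Ddx58, and B2m, the light chain of class I. Their log2 fold changes ran from 0.91 to 2.69. The receptor genes, the transcription factor genes Stat2, Irf1, Irf7 and Irf9, the heavy chain genes H2-K1 and H2-D1 and the peptide supply genes did not pass the test.

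Of the 34 genes, 33 were tested, 6 rose (18.2% of those tested) and 0 fell. Over all 19844 genes tested, 5.21% were higher and 2.53% lower (7.74% either way), by edgeR's quasi-likelihood test with Benjamini-Hochberg adjustment over all genes. An unadjusted p under 0.05 was reached by 11 of the 33 members, 0 of them lower, and DESeq2 and limma-voom called 7 higher and 0 lower. The median log2 fold change of the tested members was 0.65, against 0.00 over all tested genes. In 16 of the 33 the lowest knockout library lay above the highest WT library, and in 0 the groups were separated the other way. Over all tested genes 15.6% had the knockout above and 13.5% had it below. For 8 of the 33 (Usp18, Ifit1, Ifit3, Mx1, Mx2, Rsad2, Xaf1 and Psmb8) only the knockout libraries met the filter on low counts, which bears on the counts and the median. The count of 6 became 3 without knockout library 1, where the count over all genes went from 1033 to 577 higher. With knockout libraries 2 and 3 left out, 1 knockout library remained. The log2 fold changes of the 6 then ran from 0.98 (B2m) to 2.83 (Ifitm1). These are effect sizes only, since 1 library gives no spread within the knockout. Libraries 2 and 3 had the highest choroid plexus marker sums (39.6 and 472 CPM), whose part was not tested.

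**Figure D1:**
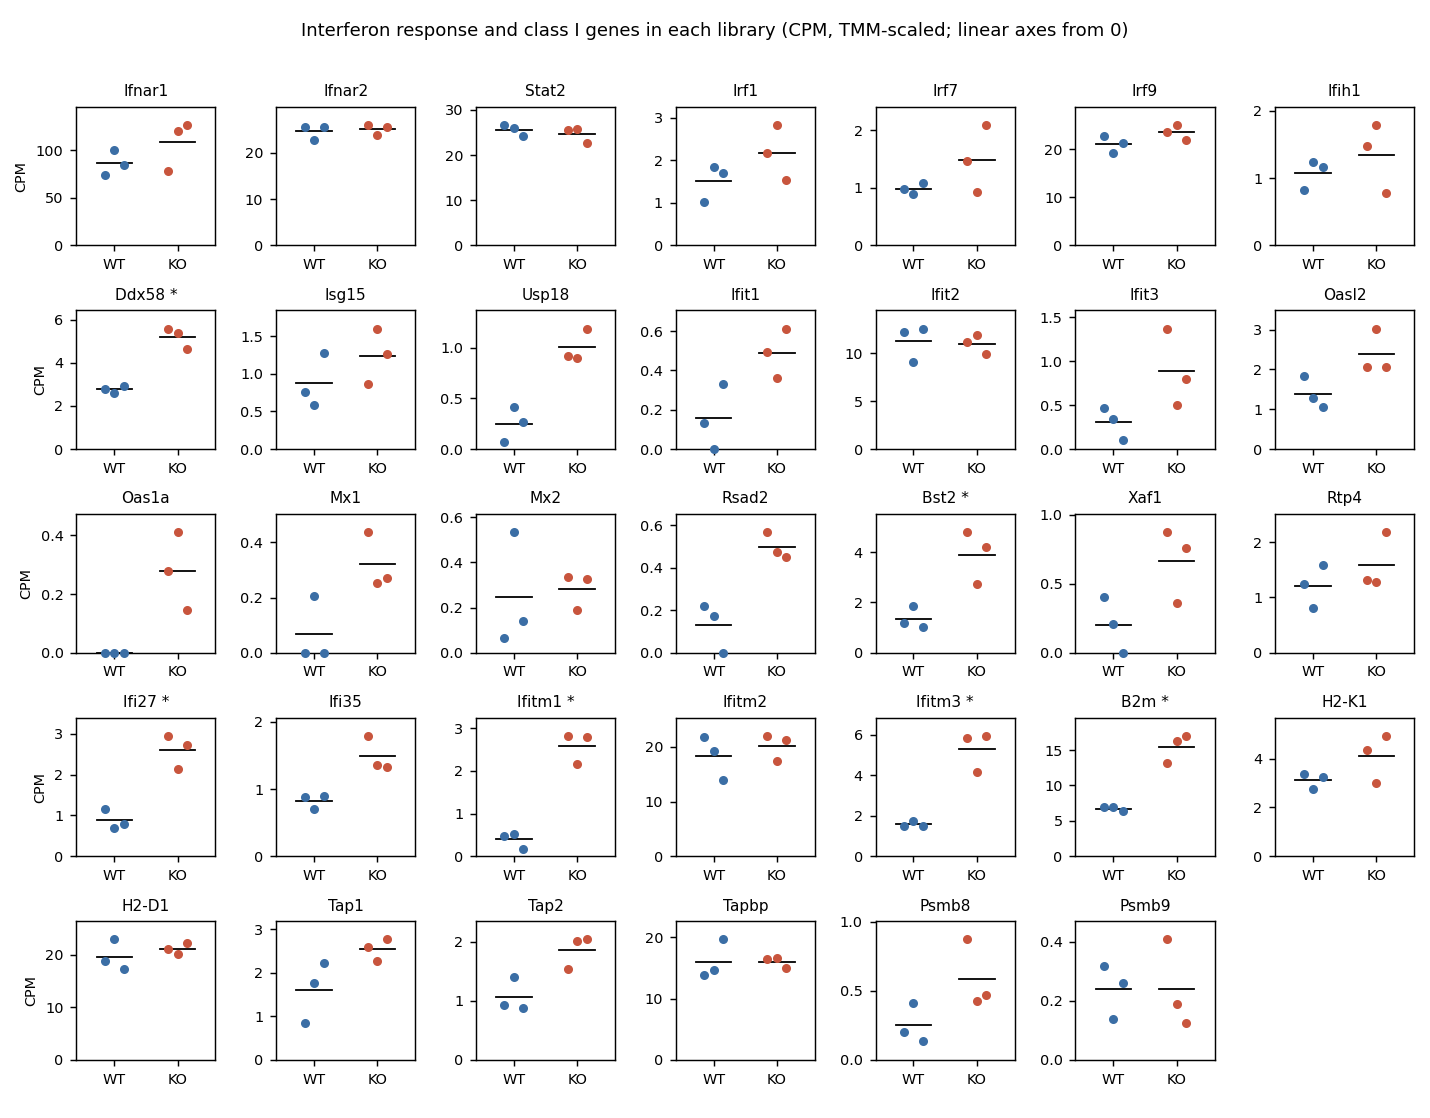
CPM (TMM-scaled, linear axes from 0) of each of the 34 genes in the 3 wild-type (WT) and 3 Csmd3 knockout (KO) libraries; points are libraries, bars are group means, and a star marks genes past the threshold. In the 6 starred genes every knockout point lies above every wild-type point.

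Promoter windows of the members were searched for the response element through which interferon-activated factors bind. RefSeq promoter windows (GRCm38.p6, mostly upstream of the start of transcription) were matched by symbol for 28 of the 34 genes. The core GAAANNGAAA, read on both strands, was found in 12 of the 28 (42.9%) and in 3.99% of 27025 genes with a window. The gamma-activated site TTCNNNGAA was found in 9 of the 28 (32.1%) and in 9.55% of all. The 2 motifs may overlap each other, and a match describes letters only, not binding. Among the 5 members past the threshold that had a window, 4 held the response element core. Among the 22 with a window that were tested and did not pass, 7 held it. The stretches below run 5′ to 3′ on the gene's strand, end before the start of transcription, and show the core in capitals. They are shown because B2m and Bst2 rose while Ifitm2 and Isg15, which hold the core too, did not pass.
B2m (chr2:122147523-122147582, plus strand): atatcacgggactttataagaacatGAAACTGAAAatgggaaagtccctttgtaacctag
Bst2 (chr8:71537568-71537627, minus strand): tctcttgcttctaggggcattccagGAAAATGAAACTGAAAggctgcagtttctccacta
Ifitm2 (chr7:140955973-140956032, minus strand): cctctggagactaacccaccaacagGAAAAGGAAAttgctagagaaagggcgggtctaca
Isg15 (chr4:156200856-156200915, minus strand): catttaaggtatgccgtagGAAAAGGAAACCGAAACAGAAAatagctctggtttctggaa
Ifit1 (chr19:34640769-34640828, plus strand): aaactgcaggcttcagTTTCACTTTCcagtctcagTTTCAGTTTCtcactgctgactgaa
In Ifit1 the core stands on the other strand, and the letters shown are its reverse complement. Bst2 held 2 overlapping copies and Isg15 held 3. In Ifitm3 the matches GAAAAGGAAA and GAAACCGAAA began 2 and 19 bases after the start, and in Ddx58 the match TTTCGATTTC began 2 bases after it. The windows of Ifitm1, H2-K1 and H2-D1 held no match of the core.

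The genes for the interferons themselves were not detected. All 9 ligand genes examined (Ifnb1, Ifna2, Ifna4, Ifna5, Ifnk, Ifne, Ifng, Ifnl2 and Ifnl3) had 0 deposited counts in every library. A count of 0 over a group still allows 3 fragments, or 12 deposited counts. Of the receptor subunits, Ifnar1 was at 73.8, 101 and 84.3 CPM in WT libraries 1 to 3 and at 78.5, 120 and 127 CPM in knockout libraries 1 to 3. The groups overlapped, with a log2 fold change of 0.33 (SE 0.21, adjusted p = 0.43). Ifnar2 was at 22.7 to 25.5 CPM in WT and 23.8 to 26 CPM in the knockout (0.03, SE 0.10, adjusted p = 0.895).

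The transcription factors that carry the signal into the nucleus did not pass, 0 of 4 also at an unadjusted p under 0.05. Stat2 was at 24.2 to 26.7 CPM in WT and 22.7 to 25.7 CPM in the knockout (log2 fold change -0.06, SE 0.10), and its partner Irf9 at 19.2 to 22.8 CPM and 21.9 to 25.1 CPM (0.15, SE 0.11). Both standard errors are small, and in both genes the groups overlapped. Irf1 and Irf7, which are themselves induced by interferon, had larger standard errors. Irf7, the factor that amplifies the type I response, was at 0.896 to 1.08 CPM in WT and at 1.46, 0.917 and 2.09 CPM in the knockout (0.59, SE 0.35, adjusted p = 0.372). Irf1 was at 1.01 to 1.84 CPM in WT and at 1.53 to 2.83 CPM in the knockout (0.53, SE 0.33, adjusted p = 0.397).

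Of the 2 cytosolic sensors of viral RNA, Ddx58 (RIG-I) rose and Ifih1 (MDA5) did not pass. Ddx58 (ENSMUSG00000040296.15, chromosome 4, 40203773 to 40239828, minus strand, mm10) was at 2.81, 2.60 and 2.92 CPM in WT and at 5.6, 5.39 and 4.64 CPM in the knockout. Each knockout library lay above each WT library, with a log2 fold change of 0.91 (SE 0.18, adjusted p = 0.0151). Without WT library 1 or 2, or knockout library 1 or 2, the adjusted p was as high as 0.0662 while the fold change stayed between 0.85 and 0.91. Ifih1 was at 0.821 to 1.24 CPM in WT and at 1.47, 1.79 and 0.776 CPM in the knockout, the last of them below all WT libraries (0.32, SE 0.37, adjusted p = 0.685).

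ISG15, a ubiquitin-like tag put on proteins during an antiviral response, and USP18, the protease that removes it and damps the receptor, were both low. Isg15 was at 0.586 to 1.27 CPM in WT and 0.859 to 1.6 CPM in the knockout, with overlapping groups (0.51, SE 0.40, adjusted p = 0.518). Usp18 held 4, 24 and 15 deposited counts in WT and 63, 57 and 66 in the knockout. Its groups did not overlap, but at about 1 to 6 fragments per WT library the fold change of 2.01 had an SE of 0.60 (adjusted p = 0.0768). DESeq2, limma-voom and the fit on counts divided by 4 put Usp18 past the threshold.

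Most classical antiviral effector genes were near the limit of detection, and of the 10 tested only Bst2 rose. Bst2 encodes tetherin, which holds budding viruses on the cell surface (ENSMUSG00000046718.8, chromosome 8, 71534255 to 71537456, minus strand, mm10). It was at 1.17, 1.86 and 1.01 CPM in WT and at 4.80, 2.72 and 4.19 CPM in the knockout, all above WT, and its promoter stretch is printed above. On the log2 scale it rose by 1.53 (SE 0.31, adjusted p = 0.0177). Leaving out WT library 1 or knockout library 1 or 3 ended the call, with adjusted p up to 0.0763. With any 1 library left out the fold change stayed between 1.36 and 1.83.

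Ifit2, which binds viral RNA with its relatives Ifit1 and Ifit3, was the most abundant effector per kilobase in WT (2.88 CPM per kb, against 1.49 for Bst2), while in the knockout Bst2 was higher (4.32 against 2.8). Ifit2 was at 9.08 to 12.6 CPM in WT and 9.92 to 11.9 CPM in the knockout (-0.04, SE 0.16), and its groups overlapped. Ifit3 had 28, 20 and 6 deposited counts in WT and 94, 32 and 44 in the knockout (1.53, SE 0.62, adjusted p = 0.181). Ifit1 had 8, 0 and 19 against 34, 23 and 34 (1.65, SE 0.97, adjusted p = 0.37). In both the knockout libraries lay above WT, yet neither passed. Of the 75-base stretches of Ifit3 transcripts, 41.1% also occur in Ifit3b, so reads could be split between them.

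Oas1a, which makes the messenger that activates RNase L, had 0 counts in WT and 19, 26 and 8 in the knockout, at least 4.12-fold higher against a floor of 12 counts over the WT group. It missed the filter and was not tested, and with no filter it had an adjusted p of 0.0375. In the fits with 1 library left out where it met the filter, it did not pass (adjusted p 0.0535 to 0.098). Its transcripts share 47.6% of their 75-base stretches with Oas1g. Mx1, a GTPase against influenza viruses that is truncated in most laboratory strains, had 12 counts in WT, all in library 2, and 61 in the knockout. That is a fold of 4.75 (95% exact binomial interval 1.32 to 25.2, counting error only; adjusted p = 0.351). Mx2, annotated as a polymorphic pseudogene, had overlapping groups (0.20, SE 0.83). Rsad2 (viperin) had 13, 10 and 0 counts in WT and 39, 30 and 25 in the knockout (1.92, SE 0.92, adjusted p = 0.262). Oasl2 (0.78, SE 0.30, adjusted p = 0.157) had groups that did not overlap, while Xaf1 (1.7, SE 0.96) and Rtp4 (0.39, SE 0.35) had groups that did. So 1 of the 10 tested effectors passed, and 6 of the 10 had the knockout above. Over all tested genes 5.21% were higher and 15.6% had the knockout above. Of those 6, Ifit1, Ifit3, Mx1 and Rsad2 met the filter through the knockout libraries alone, which favours such a separation.

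Ifi27, an interferon-inducible membrane protein gene (ENSMUSG00000064215.13, chromosome 12, 103434211 to 103440239, plus strand, mm10), was at 1.16, 0.689 and 0.803 CPM in WT and at 2.95, 2.15 and 2.72 CPM in the knockout. The groups were well apart, with a log2 fold change of 1.56 (SE 0.29, adjusted p = 0.0125). Without knockout library 1 or 3 the adjusted p rose to as much as 0.0566. Ifi35 lay above WT in all 3 knockout libraries, at 1.32 to 1.79 CPM against 0.707 to 0.890 CPM, and did not pass (0.85, SE 0.30, adjusted p = 0.129). An antisense gene covers 16.8% of its exon length.

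**Figure D2:**
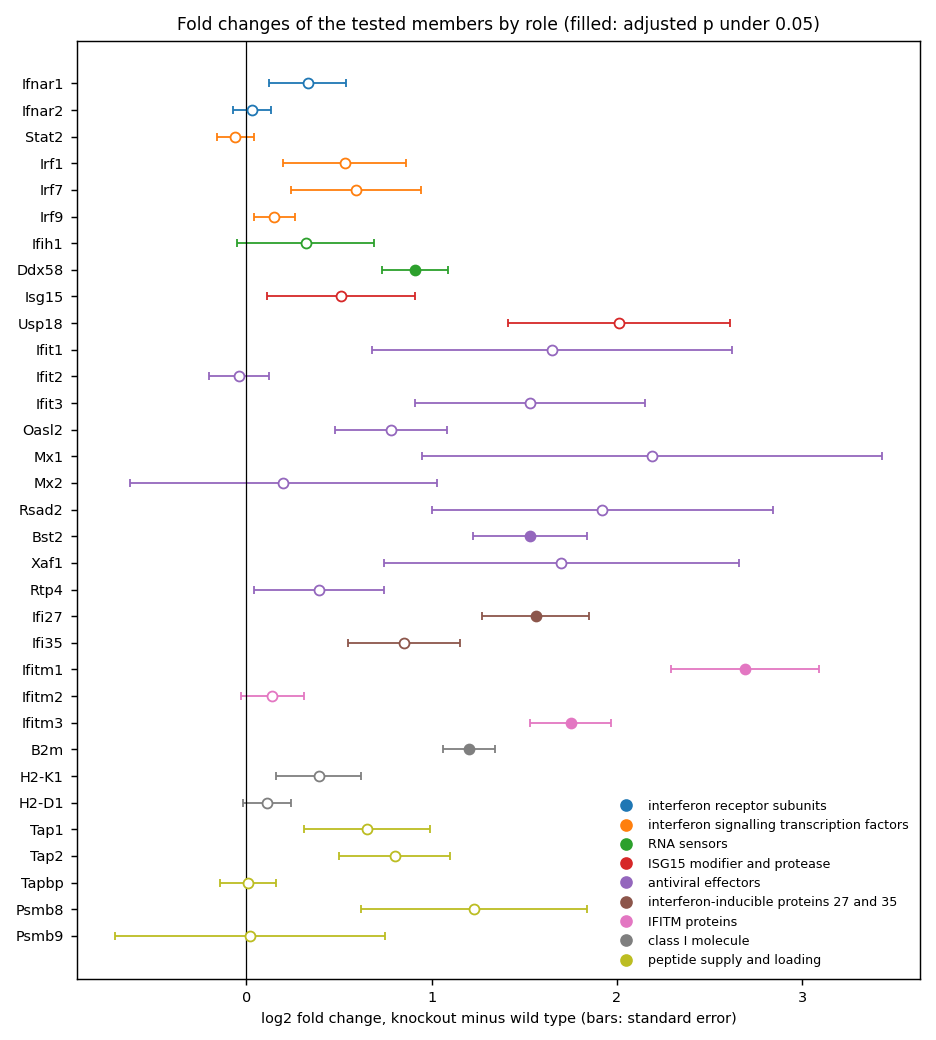
Log2 fold change (knockout minus wild type, with its standard error) of the 33 tested genes, coloured by role; filled points have an adjusted p under 0.05. The 6 filled points run from 0.91 (Ddx58) to 2.69 (Ifitm1), and the widest bars belong to genes with few counts, such as Mx1.

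The 3 IFITM genes, which encode small membrane proteins that block the entry of viruses, lie within a short stretch of chromosome 7. Ifitm1 and Ifitm3 rose and Ifitm2 did not pass. Ifitm1 (ENSMUSG00000025491.14, 140967221 to 140969825, plus strand, mm10) was at 0.486, 0.534 and 0.175 CPM in WT and at 2.82, 2.15 and 2.80 CPM in the knockout. Its log2 fold change of 2.69 (SE 0.40, adjusted p = 0.00443) was the largest of the 33. Ifitm3 (ENSMUSG00000025492.6, 141009586 to 141010770, minus strand) was at 1.49, 1.74 and 1.5 CPM in WT and at 5.82, 4.14 and 5.95 CPM in the knockout (1.75, SE 0.22, adjusted p = 0.00153). Both calls held whichever library was removed, and that of Ifitm3 also with knockout libraries 2 and 3 left out together (1.89, adjusted p = 0.02). Ifitm2 was at 21.7, 19.3 and 13.9 CPM in WT and at 22, 17.4 and 21.2 CPM in the knockout. Its groups overlapped (0.14, SE 0.17, adjusted p = 0.694), although its promoter stretch, printed above, holds the response element core.

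Per kilobase of exon, Ifitm2 was the most abundant of all 34 genes in WT, at 27.9 ± 6.09 CPM per kb (SD, n = 3), against 2.33 ± 0.208 for Ifitm3 and 0.364 ± 0.178 for Ifitm1. Ifitm2 made up 92.6%, 90.6% and 89.9% of the summed IFITM level per kilobase in WT and 75.1%, 76.7% and 74.0% in the knockout. The share was 91.0% ± 1.39 and 75.3% ± 1.35 (SD, n = 3), a difference far larger than the spread. An exact two-sided permutation test gave p = 0.10, the smallest that 3 libraries against 3 allow. Ifitm2 shares 42.0% of its 75-base stretches with other annotated genes, most of them with Gm45717, which had at most 1 count. For Ifitm1 and Ifitm3 the shared part was 0.582% and 0.662%.

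Of the class I molecule, the light chain gene B2m rose, and the heavy chain genes H2-D1 and H2-K1 did not pass. B2m (ENSMUSG00000060802.8, chromosome 2, 122147686 to 122153083, plus strand, mm10) was at 6.90, 6.89 and 6.41 CPM in WT and at 13.2, 16.2 and 17 CPM in the knockout. The WT libraries were close together and every knockout library lay well above them, with a log2 fold change of 1.20 (SE 0.14, adjusted p = 0.001). The call held with any single library left out (fold change 1.13 to 1.31), and was lost without knockout libraries 2 and 3 together (0.98, adjusted p = 0.0786). H2-D1 was at 18.8, 22.9 and 17.2 CPM in WT and 21, 20.2 and 22.3 CPM in the knockout (0.11, SE 0.13, adjusted p = 0.695). H2-K1 was at 3.37, 2.74 and 3.26 CPM and at 4.35, 2.99 and 4.93 CPM (0.39, SE 0.23, adjusted p = 0.371). For both heavy chains the groups overlapped.

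The level of B2m per kilobase was 0.952, 0.816 and 0.956 times that of H2-K1 and H2-D1 together in WT. In the knockout it was 1.6, 2.13 and 1.92 times that sum. The ratio went from 0.908 ± 0.0797 to 1.88 ± 0.27 (SD, n = 3), with no overlap (exact two-sided permutation p = 0.10, the smallest possible). H2-D1 and H2-K1 shared 5.56% and 3.10% of their 75-base stretches with other genes, among them genes of the H2-Q and H2-T families, so a few of their reads could be misplaced. The class I heavy chain genes outside this pair, grouped after their values were seen (H2-T23, H2-M3, H2-Q4, H2-Q7, H2-T22 and H2-T24) had 0 of 6 past the threshold, with fold changes from 0.30 to 0.52 and 2 at an unadjusted p under 0.05. FcRn, another partner of beta-2 microglobulin, which salvages antibodies, is encoded by Fcgrt. It was at 3, 2.48 and 1.71 CPM in WT and at 13.6, 9.5 and 14.2 CPM in the knockout, and it rose by 2.37 on the log2 scale (SE 0.24, adjusted p = 0.000473), a call kept without any single library.

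**Figure D3:**
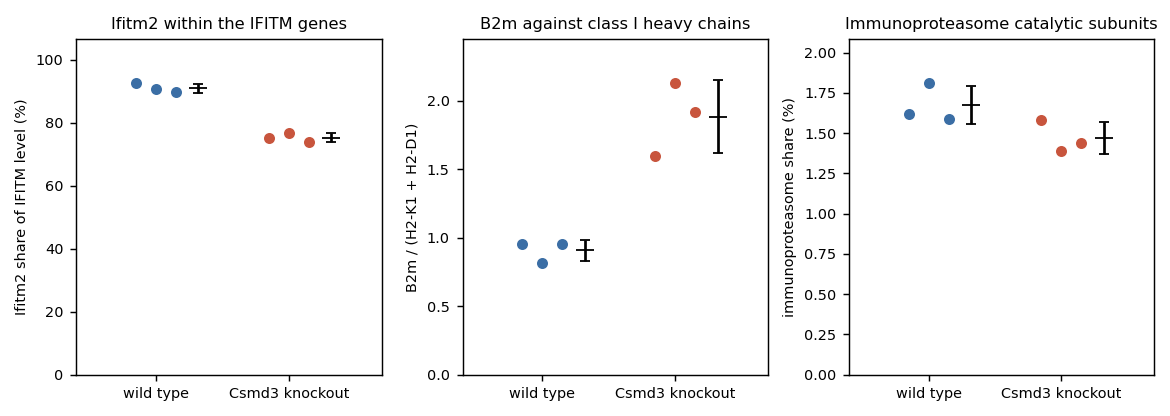
Ratios within families per library (points; wild type blue, Csmd3 knockout red; black, mean and SD of 3): the share of Ifitm2 in the IFITM level per kilobase, B2m over H2-K1 plus H2-D1 per kilobase, and the immunoproteasome share of catalytic subunits per kilobase. The Ifitm2 share lies at 89.9% to 92.6% in wild type and 74.0% to 76.7% in the knockout, and the B2m ratio at 0.816 to 0.956 and 1.6 to 2.13.

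The genes for peptide supply had 0 of 5 past the threshold, and 1 (Tap2) at an unadjusted p under 0.05. Tap1 and Tap2, the subunits of the peptide pump, lie next to the immunoproteasome genes Psmb8 and Psmb9 on chromosome 17. Tap2 was at 0.938, 1.40 and 0.873 CPM in WT and at 1.54, 2.01 and 2.04 CPM in the knockout (0.80, SE 0.30, adjusted p = 0.146). Tap1 was at 0.838 to 2.23 CPM and at 2.26 to 2.76 CPM (0.65, SE 0.34, adjusted p = 0.309). In both the knockout lay above WT. Tapbp, the gene of tapasin, was at 16 ± 3.14 and 16 ± 0.943 CPM (SD, n = 3; 0.01, SE 0.15). An antisense gene covers 24.9% of its exon length. Psmb8 had 12, 24 and 8 deposited counts in WT and 60, 27 and 26 in the knockout (1.23, SE 0.61, adjusted p = 0.282). Psmb9 had 19, 8 and 15 against 28, 12 and 7 (0.02, SE 0.73), and its exons overlap those of Tap1 on the opposite strand.

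The third inducible subunit, Psmb10, went the other way without passing. It was at 6.38, 8.70 and 6.16 CPM in WT and at 5.5, 4.91 and 5.16 CPM in the knockout, below WT in all 3 (-0.45, SE 0.18, adjusted p = 0.172). The constitutive subunits that these replace were far more abundant and did not pass either: Psmb5 (-0.21, SE 0.10), Psmb6 (-0.22, SE 0.09) and Psmb7 (-0.10, SE 0.08). Per kilobase, the 3 inducible subunits were 1.67% ± 0.119 of all 6 in WT and 1.47% ± 0.102 in the knockout (SD, n = 3; exact permutation p = 0.10). Nlrc5, the main activator of class I genes, had 14 to 22 deposited counts in WT and 23 to 33 in the knockout (0.43, SE 0.53, adjusted p = 0.711).

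The other genes of the pathway were read from lists by function. Of 107 listed, 87 were tested, 23 rose (26.4%) and 0 fell, with 4 lower at an unadjusted p under 0.05, where 5.21% of all tested genes were higher. In 11 of the 87 only the knockout libraries met the filter on low counts, which bears on these counts. The called genes among the 11 are Ifi44, Gbp4, Gbp6, Trim30a and Cxcl10. DESeq2 called 32 higher and 1 lower, and limma-voom 19 and 1, the lower gene being Cmpk2 in both. Without any 1 library but WT library 3, 9 to 12 were higher, and without knockout libraries 2 and 3 there were 4. Among receptors, kinases and STAT factors 3 of 8 rose, among them Ifngr1 and Il10rb. Ifngr1, the ligand-binding chain of the interferon-gamma receptor, went from 2.23 to 4.02 CPM in WT to 6.37 to 7.16 CPM in the knockout (1.14, SE 0.22, adjusted p = 0.0153). It did not pass once WT library 1 or a knockout library was removed (adjusted p up to 0.0635). Il10rb, shared by the receptors of interferon lambda and interleukin 10, rose by 1.23 (SE 0.18, adjusted p = 0.00405). The other 5 of the 8, among them the kinase genes of the pathway, did not pass.

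Of the other nucleic acid sensing genes 4 of 10 rose. Eif2ak2, the kinase PKR that stops translation on viral RNA, was at 2.08 to 2.86 CPM in WT and 5.39 to 7.23 CPM in the knockout (1.41, SE 0.20, adjusted p = 0.00349). Trim25, the ubiquitin ligase that assists RIG-I, rose by 1.17 (SE 0.16, adjusted p = 0.00229). Tmem173, which encodes STING, was at 0.551 to 0.637 CPM and 1.31 to 1.71 CPM (1.31, SE 0.30, adjusted p = 0.0304). Mavs, the adaptor downstream of RIG-I, rose by 0.69 (SE 0.15, adjusted p = 0.0253). For Eif2ak2 and Trim25 the call held whichever library was removed. Tmem173 and Mavs kept theirs without WT library 3 and lost them without any other (highest adjusted p = 0.12 and 0.0947).

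Of 34 other interferon-inducible genes tested 14 rose, 8 of the 34 having met the filter through the knockout libraries alone. Those 8 include Ifi44 and every gene of this list described next (Gbp4, Gbp6, Trim30a and Cxcl10). These genes entered the test only because their knockout counts were high, which bears on their calls. Gbp4, a guanylate-binding GTPase, had 0 counts in WT and 107, 77 and 75 in the knockout, at least 20.2-fold higher (adjusted p = 0.000683). Its relative Gbp6 had 15, 4 and 0 counts against 82, 158 and 95 (4.04, SE 0.86, adjusted p = 0.0293), which did not pass once WT library 2 or a knockout library was removed (adjusted p up to 0.133). Trim30a had 9, 7 and 12 against 79, 50 and 44 (2.49, SE 0.50, adjusted p = 0.0163), not past the threshold once WT library 1 or knockout library 1 or 3 was removed (adjusted p up to 0.0907). Cxcl10, a chemokine that attracts T cells, had 0 counts in WT and 18, 22 and 11 in the knockout, at least 3.97-fold higher, and lost its call without any 1 library but WT library 3 (highest adjusted p = 0.137). Among negative regulators 1 of 5 rose, Samhd1, which destroys nucleotides (0.48, SE 0.11, adjusted p = 0.0288), a call kept only without WT library 3 when libraries were left out (highest adjusted p = 0.115). Of the class I pathway list 1 of 18 rose (Fcgrt), and 0 of 6 other IRF factors (1 at an unadjusted p under 0.05). Of 7 class II genes 3 were tested and 0 passed (0 also unadjusted), and H2-Aa had 0 counts in every library.

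**Figure D4:**
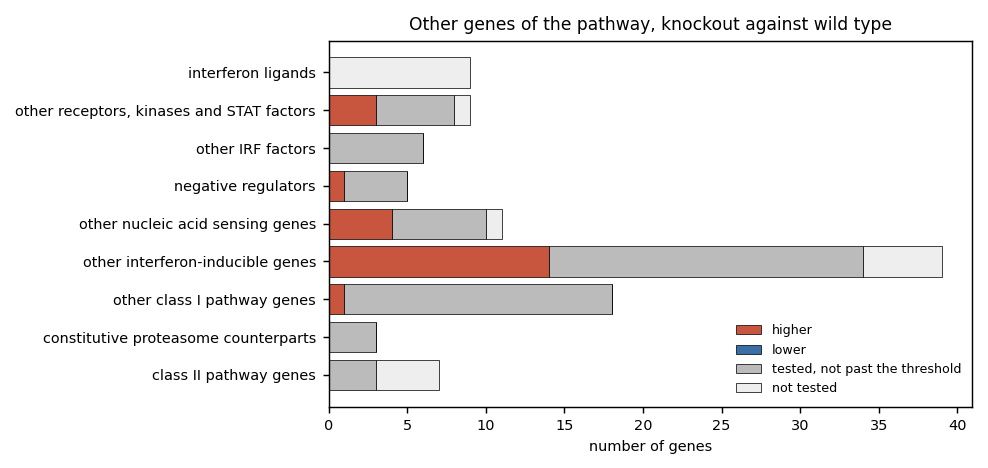
Number of other pathway genes in each list that were higher, lower, tested without passing, or not tested (stacked bars, from 0), knockout against wild type. The interferon-inducible list holds 14 of the 23 higher genes, no list holds a lower one, and all 9 ligands were untested at 0 counts.

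The 6 members that rose can be set beside the cell type markers of the same libraries. B2m and Ifitm3 had ranges in the knockout of 13.2 to 17 and 4.14 to 5.95 CPM where the microglia markers summed to 96.9 to 107 CPM and the endothelial markers to 509 to 622 CPM. Those marker sums were 1.71 and 1.6 times WT by group mean, that of mural cells 1.84 times, that of border macrophages 8.79 times and that of meningeal fibroblasts 26.3 times. Choroid plexus markers were at 2.75, 39.6 and 472 CPM in knockout libraries 1 to 3. B2m had the same order of libraries (13.2, 16.2 and 17 CPM). So had the endothelial sums (509, 531 and 622 CPM) and the mural cell sums (234, 247 and 269 CPM). With knockout libraries 2 and 3 left out, 1 knockout library remained. The log2 fold change was then 0.98 for B2m, 2.83 for Ifitm1, 1.84 for Bst2, 1.75 for Ifi27 and 1.02 for Ddx58. With no spread within the knockout, these effect sizes cannot show whether the rises stand without libraries 2 and 3. Ifitm3 (5.82, 4.14 and 5.95 CPM) had the order of the border macrophage sums (109, 104 and 136 CPM) and of the erythroid sums. Ifitm1, Bst2 and Ifi27 had that of the microglia sums (107, 96.9 and 104 CPM) and meningeal fibroblast sums (734, 534 and 636 CPM). Ddx58 had another order. The order of 3 libraries is shared by several lists, and the part of any of these cells was not tested. Erythroid markers overlapped between the groups, at 1520 to 2106 CPM and 1886 to 2203 CPM. Within the knockout no library was highest throughout: 14 of the 34 members peaked in library 1, 9 in library 2 and 11 in library 3, and 18 were lowest in library 2.

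**Figure D5:**
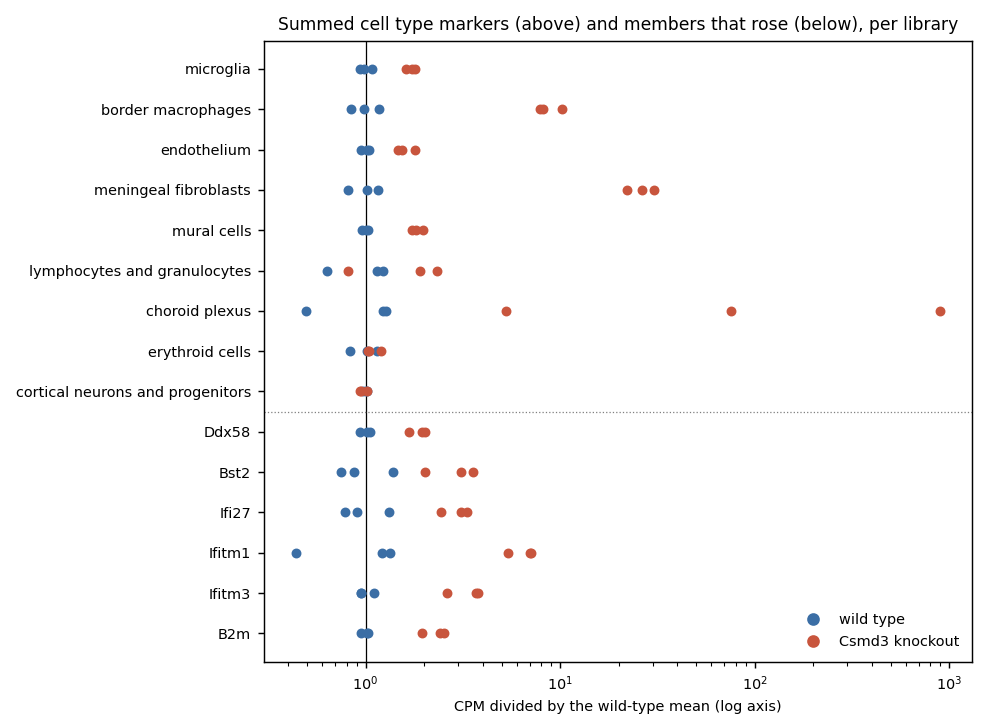
CPM divided by the wild-type mean (log axis) in each library, for summed cell type markers (top 9 lines) and the 6 members that rose (bottom 6 lines); blue, wild type, red, Csmd3 knockout. Meningeal fibroblast markers sum to 534 to 734 CPM in the knockout against 19.7 to 28.1 CPM in wild type, choroid plexus markers spread from 2.75 to 472 CPM in the knockout, and the 6 members separate the groups.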

How the data were processed

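The deposited table holds whole-number gene counts for 6 libraries, per the file headers. Since small values cluster at multiples of 4, the deposited table was handled as estimated counts. Per the submitters' processing notes the build was mm10 and the tools included HISAT2 2.0.5 and StringTie 1.3.4, Trim Galore 0.4.4 and FastQC 0.11.9, with no stated roles. For the counting program, annotation and strand handling the labels name nothing. Deposited totals were 54244288 to 68269607 per library. Rows were named from GENCODE M21 (55141 of 55401).

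Groups come from the labels. Genes kept by filterByExpr (minimum count 10) were scaled by TMM and compared on all 6 libraries by edgeR 4.0.16 (quasi-likelihood F-test, robust) in R 4.3.3, with Benjamini-Hochberg adjustment over 19844 genes and a threshold of 0.05. The fit recovered known changes in simulated counts, where every gene had the same spread and only genes above a minimum level were changed. That check therefore does not cover members with few counts. SE is the absolute log2 fold change over the root of F. CPM per kb divides by merged exon length. Floors are 3 fragments (12 counts) over a group. DESeq2 1.42.0, limma 3.58.1 and other settings were tried as alternatives. Members and lists were chosen with earlier results of these data known. All members are named, with up to 4 called genes of each other list by size of fold change; genes named in the closing section fall outside that rule. The values of 1 gene of the other lists are not reported here.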

Additional observations from a re-analysis of the deposited data

How the results depend on the processing

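The 33 tested members were refitted under 16 settings, with 511 values where a gene could be tested, of which 470 kept direction and side of the threshold, 16 lost a call, 3 gained one (Usp18) and 22 had the other sign. No sign changed among the 6 members that rose, and none of the 22 was called. With knockout libraries 2 and 3 left out, Ifnar1 was at -0.13, Isg15 at -0.01, and Stat2 and Ifit2 at 0.00 after rounding. With 1 library left out, the sign changed within the ranges of Ifnar2 (-0.02 to 0.08), Ifit2 (-0.17 to 0.05), Mx2 (-0.26 to 1.44), Ifitm2 (-0.02 to 0.27), Tapbp (-0.10 to 0.18) and Psmb9 (-0.59 to 0.32). Tapbp was at -0.00 under RLE scaling, DESeq2 and counts divided by 4, and Psmb9 at -0.09 under limma-voom and -0.06 with the replicate block. The cause was not tested. Leaving out knockout libraries 2 and 3, which leaves 1 knockout library assumed to vary like the others, gave 1 member and 4 other pathway genes higher, and 262 higher and 43 lower over all genes. With 1 library left out, 3 to 6 members, 9 to 24 other pathway genes and 472 to 1402 of all genes were higher, and 137 to 956 of all genes were lower. Fewer libraries were fitted there, and the cause of the rise without WT library 3 was not tested. DESeq2 put 921 of all genes and 1 pathway gene lower, and limma-voom 1 pathway gene lower; the cause was not tested. DESeq2, limma-voom, RLE and upper-quartile scaling, both other filters, the fit that was not robust and counts divided by 4 kept all 6 member calls. Replicate numbers do not pair the libraries: the correlations of same-numbered deviations were 0.0283, -0.00263 and 0.00163. With the number as a replicate block, 4 members and 11 other pathway genes were higher, and 686 and 255 of all genes were higher and lower; Ddx58 (adjusted p = 0.0518) and Bst2 (0.0656) lost their calls. Low depth limits Oas1a, Mx1, Mx2, Ifit1, Rsad2, Xaf1, Psmb8 and Psmb9.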

Other observations

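Beyond the genes named by rule, families of interferon-inducible GTPases and of ADP-ribosylation genes were examined, chosen after their values were seen and therefore given as description. Of 7 guanylate-binding protein genes, 3 rose (Gbp4, Gbp6 and Gbp7), and in 6 of the 7 the knockout lay above WT. Over all tested genes 5.21% were higher and 15.6% had the knockout above. Of the 7, 4 (Gbp2, Gbp4, Gbp5 and Gbp6) met the filter through the knockout libraries alone, and all 4 are among those 6. Gbp7 was at 0.704, 0.517 and 0.524 CPM in WT and at 3.29, 2.39 and 2.02 CPM in the knockout (log2 fold change 2.14, SE 0.31, adjusted p = 0.00339). Of 4 immunity-related GTPase genes, which act on vacuoles that hold pathogens, Igtp (2.35, SE 0.41, adjusted p = 0.00958) and Irgm1 (1.76, SE 0.31, adjusted p = 0.0102) rose. Gbp7, Igtp and Irgm1 passed whichever library was removed (highest adjusted p = 0.0496, for Irgm1). Parp9, Parp12, Parp14 and Dtx3l, the last of which pairs with Parp9, all rose, with fold changes from 0.83 to 2.15. Of these 4, Parp14 alone passed whichever library was removed (highest adjusted p = 0.0472), and it did not pass under limma-voom.

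Cmpk2, a nucleotide kinase gene usually induced together with its neighbour Rsad2, was lower in all 3 knockout libraries, at 493, 500 and 453 deposited counts against 710, 581 and 586 in WT (-0.47, SE 0.14, adjusted p = 0.0694). Rsad2 had the knockout above WT. The receptor damping gene Socs3 was also below WT in all 3 (-0.28, SE 0.11, adjusted p = 0.176).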
